A study of Mus musculus with 10 samples.

Results

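The genes described here are 10 protein-coding genes of the mitochondrial DNA: ND1, ND2, ND3, ND4, ND5 and ND6 of complex I, CYTB of complex III, and COX1, COX2 and COX3 of complex IV. They were chosen by name, as upper-case rows of a table of 17404 genes, with earlier results of these data known. The remaining 3 mitochondrially encoded rows of that table, ND4L, ATP6 and ATP8, are given beside them. All 10 passed the filter of at least 11 counts in total, and the lowest count of any of them in a library was 244.

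The libraries were made from RNA of long-term hematopoietic stem cells (LT-HSCs) sorted from mouse fetal livers at E14.5. There were 6 libraries of the genotype Tnfrsf11aCre; Spi1f/f (KO) and 4 of the genotype Tnfrsf11a+/+; Spi1f/f (WT), so both groups carried the floxed Spi1 alleles and differed in the Cre. The Cre is driven by Tnfrsf11a, which is expressed in macrophage progenitors, and Spi1 encodes a transcription factor that macrophages need, so the comparison asked how LT-HSCs differ in a fetal liver short of macrophages rather than what Spi1 does in LT-HSCs themselves. Libraries are named below by group and number. The labels do not say which embryo or litter each came from, so p-values measure the spread between these libraries.

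The KO libraries held 5315435 to 30941726 counts each, and the WT libraries 7633446 to 18256010. Spi1, the targeted gene, was at 9.10 to 101 CPM (counts scaled to library size) over the KO libraries and at 6.22 to 50.1 over the WT libraries. The groups overlapped, so its RNA does not separate the genotypes in these cells. Of the 6 KO libraries, 4 lay above the highest WT library and 0 below the lowest. The log2 fold change of KO against WT was 1.31 (SE 0.69, adjusted p = 0.337, edgeR quasi-likelihood test). All 8 LT-HSC markers were detected in every library. Markers of other cell types were present too, and their values are given below.

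The mitochondrial DNA is a small circle that every cell holds in many copies. It encodes a few core subunits of the respiratory chain and the ribosomal and transfer RNAs used to make them. The nucleus encodes all other subunits and the proteins that copy, transcribe and translate the mitochondrial DNA. Each strand is transcribed as a long precursor, which is cut mostly at the transfer RNAs that stand between the coding genes. Most of the freed messenger RNAs are then polyadenylated. Hematopoietic stem cells are known for relying little on respiration at rest, with respiration rising as they enter cycle and differentiate.

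In the Gencode vM21 annotation (genome build GRCm38), the 10 genes are single-exon transcripts of chromosome M, from ND1 at chrM:2751-3707 to CYTB at chrM:14145-15288. ND6, at chrM:13552-14070, is the only one on the minus strand. Lengths run from 348 bases for ND3 to 1824 for ND5. The 3' ends below, from the same transcripts, are shown because the libraries were primed on poly(A) tails and because 3 of the 10 messages hold no complete stop codon. In COX3, ND4 and CYTB, 1 base stands beyond the last whole codon, and the stop codon is completed by the poly(A) tail. Capitals mark the stop codon or the lone base, and COX1 and ND1 are shown as genes with a complete stop.
COX3: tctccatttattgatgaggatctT
ND4: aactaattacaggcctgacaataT
CYTB: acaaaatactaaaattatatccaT
COX1: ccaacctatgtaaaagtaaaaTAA
ND1: gcgggagtaccaccatacataTAG

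ND5 and ND6 overlap by 14 bases on opposite strands, and ND4 overlaps ND4L by 7 bases on the same strand. The protocol does not mark strand, so reads within the first overlap, and any antisense read elsewhere, cannot be divided between ND5 and ND6.

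The 10 genes took between 1.72% and 3.98% of a library's counts on genes. In WT the share was 2.55% in library 15416, 2.19% in 15417, 1.72% in 15418 and 2.68% in 15420. In KO it ran from 1.87% over a median of 2.20% to 3.98%. KO 15412 (3.98%) and KO 15415 (3.36%) lay above every WT library, and the other 4 KO libraries, at 1.87% to 2.24%, lay within the WT range. The share was 2.59% ± 0.865 (SD, n = 6) in KO and 2.29% ± 0.434 (SD, n = 4) in WT.

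The difference of 0.306 percentage points between these means was smaller than the pooled SD of 0.734. Its sign depended on 2 libraries. The KO mean was 2.06% without KO 15412 and KO 15415, 0.23 points below WT, and the difference of the group medians was -0.17 points. Without KO 15412 alone the difference of the means was 0.0295 points, without KO 15415 alone 0.154 points, and without WT 15418 it was 0.116 points. Counting error was small at this depth: the widest 95% Wilson interval, in the shallowest library KO 15406, ran from 1.94% to 1.96%. The reads carry no molecular identifiers, so such intervals cover counting error only. With ND4L, ATP6 and ATP8 added, the 13 genes took 2.01% to 4.47% of counts.

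**Figure D1:**
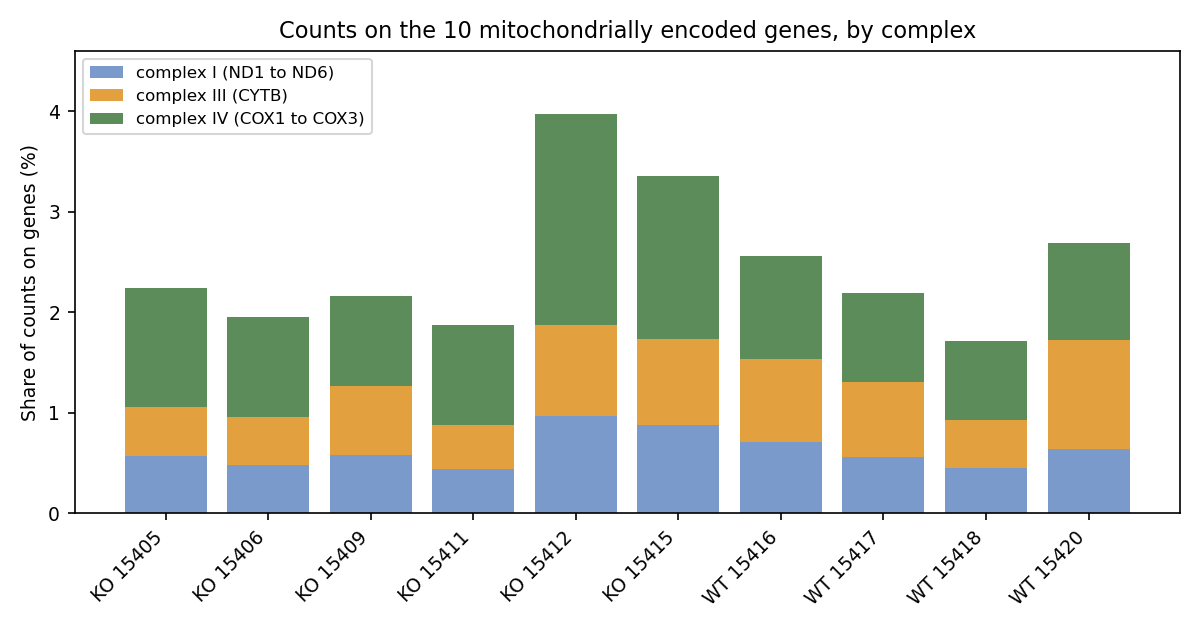
Share of each library's counts on genes (%, vertical axis) taken by the 10 mitochondrially encoded genes, stacked by complex, for 6 KO and 4 WT libraries. KO 15412 and KO 15415 reach 3.98% and 3.36%, and the other 8 libraries lie between 1.72% and 2.68%.

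KO 15412 and KO 15415 also stood high in other measures, which are given here with the values of the other libraries. At 5315435 counts per library, 15454 genes were detected in KO 15412 and 15413 in KO 15415, the highest numbers of all, against 14595 to 15071 in the other KO libraries and 13728 to 14583 in WT. Among the other libraries, WT 15420 had the highest share (2.68%) and the fewest genes (13728), and KO 15411 had the most genes (15071) and a share of 1.87%. The summed CPM of 8 hepatoblast markers was 4884 in KO 15412 and 6500 in KO 15415, against 64.0 to 1068 in the other KO libraries. It was also high, at 4489, in WT 15418, which had the lowest share on the 10 genes, and it was 165 to 604 in the remaining WT libraries. The sum of 8 megakaryocyte markers was 2526 and 3671 in KO 15412 and KO 15415, 2615 in KO 15411, 249 to 426 in the other KO libraries and 250 to 1269 in WT.

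Macrophage markers summed to 133 to 205 CPM over KO and to 86.0 to 303 over WT libraries, so the groups overlapped. Of the 8 markers, 6 had counts in every library, and Marco was at 0 in every KO library. Endothelial markers summed to 1128 to 7165 CPM in KO and 263 to 4572 in WT. For erythroblasts, 6 of 8 markers were in the table, and they summed to 227 to 2166 CPM in KO and 218 to 6111 in WT, highest in WT 15418. LT-HSC markers summed to 406 to 1369 CPM in KO and 369 to 539 in WT. The part of these markers, and of the number of genes detected, in the share was not tested. In bulk libraries a change in the mix of cells and a change in RNA per cell cannot be told apart.

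None of the 10 genes was called between KO and WT by edgeR's quasi-likelihood test. A gene was called at a Benjamini-Hochberg adjusted p below 0.1 over 16725 genes. The count was 0 of 10, where 3.99% of all genes tested were called. With so low a share over all genes, a count of 0 among 10 says little about the members. No member reached an unadjusted p of 0.05, and DESeq2 called 0 of 10 with or without its fold-change threshold. The log2 fold changes of KO against WT were positive for 5 and negative for 5, with a median of -0.02, beside a median of 0.06 over all genes tested. In CPM scaled by TMM factors, the unit of the values below, KO and WT libraries overlapped for all 10 genes, where 6.36% of genes tested did not overlap.

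Without KO 15412 and KO 15415, an alternative chosen after seeing the data, all 10 log2 fold changes were negative, with a median of -0.37 beside 0.05 over all genes. Those KO libraries had the highest shares on the 10 genes, so leaving them out lowers the KO values of the members by construction. In that fit edgeR called 0 of 10 and 0 genes of the whole table, so the count of 0 says nothing about the members. It put 5 members at an unadjusted p below 0.05, but the libraries were left out on the members' own values, so this number is not a test.

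Complex I takes electrons from NADH, and its mitochondrially encoded subunits all lie in the part embedded in the inner membrane. ND1, at the junction of the membrane part with the arm that carries the cofactors, had 4415, 3089, 3393 and 3565 CPM in WT 15416, 15417, 15418 and 15420. In KO it ran from 1929 over a median of 3077 to 5151 CPM. Of the 6 KO libraries, 2 lay above the highest WT library and 3 below the lowest.

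The log2 fold change of ND1 was -0.09 (SE 0.28, adjusted p = 0.899, edgeR quasi-likelihood test). Its 95% interval, -0.68 to 0.51, leaves room for a change of either sign.

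ND2, ND4 and ND5 encode the proton-pumping, antiporter-like subunits. ND2 was at 328, 231, 252 and 265 CPM in WT and at 133, 196 and 355 (lowest, median and highest) in KO, where 4 of 6 libraries lay below the lowest WT library and 1 above the highest. ND4 was at 1852, 1499, 1689 and 2013 CPM in WT and at 1095, 1428 and 2491 in KO. Again 4 KO libraries lay below all WT libraries, but here 2 lay above.

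ND5 was at 822, 512, 600 and 859 CPM in WT and at 479, 579 and 1133 in KO. Here 1 KO library lay below and 2 above the WT range. The log2 fold changes were -0.25 for ND2 (SE 0.27, adjusted p = 0.675), -0.09 for ND4 (SE 0.25, adjusted p = 0.876) and 0.03 for ND5 (SE 0.27, adjusted p = 0.965), all by edgeR.

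ND3 and ND6 are small membrane subunits that take part in coupling the reaction to the pumps. ND3, the least abundant of the 10, was at 61.8, 43.2, 49.0 and 40.9 CPM in WT and at 38.6, 49.6 and 108 in KO. ND6 was at 180, 124, 139 and 166 CPM in WT and at 103, 115 and 226 in KO, with 4 KO libraries below the lowest WT library and 2 above the highest. The log2 fold changes were 0.32 for ND3 (SE 0.30, adjusted p = 0.609) and -0.07 for ND6 (SE 0.26, adjusted p = 0.917) by edgeR. ND6 came to 0.188 to 0.215 counts per ND5 count in KO and to 0.193 to 0.243 in WT.

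CYTB encodes cytochrome b, the subunit of complex III that binds both of its quinone sites. It was at 8865, 7401, 6378 and 11730 CPM in WT and at 3846, 5523 and 8678 in KO. No KO library lay above the highest WT library, and 3 lay below the lowest. Its log2 fold change of -0.51 (SE 0.28) was the most negative of the 10, with an unadjusted p of 0.0861 and an adjusted p of 0.343 in edgeR's quasi-likelihood test. The 95% interval ran from -1.11 to 0.08. Over 25 alternative settings it stayed negative, from -0.83 to -0.33, with adjusted p from 0.218 to 0.578.

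COX1, COX2 and COX3 form the core of complex IV, and COX1 and COX2 carry its heme and copper centers. COX1 was at 5902, 4820, 5921 and 6249 CPM in WT and at 4406, 5402 and 11024 in KO. COX2 was at 1783, 1600, 1919 and 1731 CPM in WT and at 1371, 1729 and 3855 in KO. COX3 was at 3275, 2338, 2817 and 2373 CPM in WT and at 2121, 2830 and 5268 in KO.

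For each of the 3 genes, 2 KO libraries lay above the WT range, while 1, 3 and 2 lay below it. The log2 fold changes were 0.23 for COX1 (SE 0.26, adjusted p = 0.680), 0.29 for COX2 (SE 0.28, adjusted p = 0.621) and 0.32 for COX3 (SE 0.27, adjusted p = 0.569), by edgeR. These positive signs also rested on 2 libraries: without KO 15412 and KO 15415 the values were -0.15, -0.12 and -0.06.

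**Figure D2:**
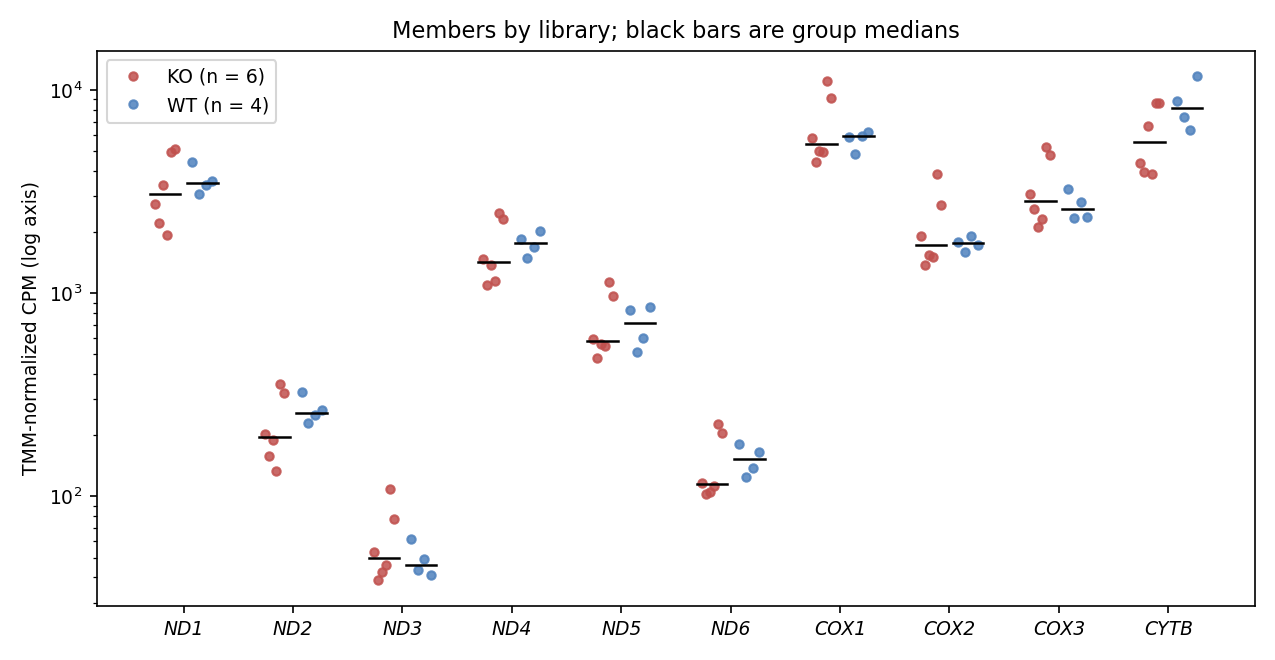
CPM after TMM normalization (vertical log axis) of the 10 genes in 6 KO and 4 WT libraries, each point a library and each black bar a group median. The groups overlap for every gene, and for ND1, ND3, ND4, ND5, ND6, COX1, COX2 and COX3 2 KO points lie above all WT points.

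ND4L, the remaining complex I gene, had a log2 fold change of 0.15 (SE 0.27, adjusted p = 0.813). For ATP6 and ATP8, subunits of the ATP synthase, the values were -0.19 (SE 0.23, adjusted p = 0.703) and -0.38 (SE 0.21, adjusted p = 0.351). None of these 3 genes was called by edgeR either.

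The split of counts among the complexes does not depend on scaling between libraries. Complex I genes took 23.7% to 27.1% of the members' counts in KO and 23.8% to 27.9% in WT. CYTB took 32.3%, 34.2%, 27.5% and 40.5% in WT 15416, 15417, 15418 and 15420. In KO it took 21.6% to 25.3% in 5 libraries, below every WT library, and 31.7% in KO 15409, inside the WT range.

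The genes of complex IV mirrored this. They took 39.9%, 40.4%, 46.0% and 35.7% of the members' counts in WT, and 48.4% to 53.1% in the same 5 KO libraries, above every WT library. In KO 15409 they took 41.2%. COX1 came to 1.05 to 1.32 counts per CYTB count in those 5 libraries and to 0.751 in KO 15409, against 0.666, 0.651, 0.928 and 0.533 in WT. COX3 came to 0.553 to 0.699 counts per CYTB count in the 5 libraries and to 0.319 in KO 15409, against 0.202 to 0.442 in WT. These ratios were chosen after the values were seen and are given with no test.

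Levels between genes were compared in TPM, a unit that divides by the effective length of the transcript. The means over the 10 libraries were 6053 TPM for CYTB, 4121 for COX3, 4036 for COX1, 3671 for ND1, 3071 for COX2, 1211 for ND4, 378 for ND5, 309 for ND6, 233 for ND2 and 193 for ND3. ND4, ND5 and ND6 were 6th, 7th and 8th in every library. ND2 and ND3 exchanged the last places between libraries. COX1 and COX3 ranged from 2nd to 4th and 1st to 4th, ND1 from 2nd to 5th, and CYTB was 1st or 2nd, so the order among the upper 5 was not fixed beyond the spread of the libraries. ND4 and ND5, neighbors on the same strand, thus differed by more than the spread, with ND4 at 777 to 1689 TPM and ND5 at 206 to 572.

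On the TPM scale, the KO libraries lay above all WT libraries for COX1 (3724 to 6627 against 2415 to 3404) and COX2 (2794 to 5589 against 1887 to 2509), which was not so in CPM. Of all genes tested with TPM values, 5.85% did not overlap between the groups and 5.71% were higher in all KO libraries, 914 of 937 genes, so this scale as a whole was shifted toward KO. The 22 mitochondrial transfer RNAs, whose effective length is close to its minimum, took 5.05% to 12.1% of a library's TPM but at most 0.0132% of its estimated counts. The 12S and 16S ribosomal RNAs of the mitochondrion took 0.0239% to 0.0708% and 0.183% to 0.472% of estimated counts.

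Counts on sequences near-identical to the COX genes stood outside the table of genes. The nuclear genome holds old insertions of mitochondrial DNA, and transcript sequences of 11 annotated pseudogenes matched a mitochondrially encoded gene at 95% identity or more. None of the 11 is a row of the table of genes. In the transcript tables, Gm29216 at chr1:24615706-24616197 (minus strand, copy of COX1) held 347727 estimated counts over the 10 libraries. Gm28437 at chr1:24613189-24613971 (minus strand, copy of COX3) held 162714. Gm28661 at chr1:24614885-24615565 (minus strand, copy of COX2) held 68760.

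Over its aligned bases Gm28437 was identical to COX3 for 783 bases and Gm28661 to COX2 for 681. Gm29216 differed from COX1 at 1 of 483 bases. That base is shown because it is the only place in the alignment at which a read could tell the copy from the gene. The differing base is in capitals, COX1 is from chrM:6390-6417 (plus strand) and Gm29216 from chr1:24616161-24616188 (minus strand), and the substitution is A1066T, counted from 1 at the first base of COX1.
COX1: ggaAttgttttatccaactcatcccttg
Gm29216: ggaTttgttttatccaactcatcccttg

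ND3 also has a near-identical copy, Gm28438, and the comparison is shown because that copy held almost no counts. The sequences are from chrM:9459-9485 (plus strand) and chr1:24613093-24613119 (minus strand), and the substitution is T3C, counted from the first base of ND3.
ND3: atTaacctgtacactgttatcttcatt
Gm28438: atCaacctgtacactgttatcttcatt

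Of the estimated counts on COX1 and its copies together, the copies held 22.2% to 26.4% in KO and 21.9% to 31.3% in WT. For COX2 the range was wider: 8.14% to 29.4% in KO and 12.9% to 34.9% in WT. For COX3 they held 19.6% to 25.8% in the KO libraries and 20.9% to 32.4% in the WT libraries. ATP6 had the highest shares, 20.3% to 49.5% in KO and 36.4% to 54.0% in WT. The groups overlapped for all 4 genes.

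Copies of the other members held few or no counts. Gm28438 held 25.9 estimated counts, all in WT 15416, where they made up 3.08% of ND3 plus copy. ND4 has a copy, Gm28439, that is identical over 876 bases, and it held 0 estimated counts. For ND1, ND6 and CYTB no copy at this identity was found among the annotated transcripts searched. Whether any of these reads came from the nuclear copies cannot be told where the sequences are identical.

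With the copies added, the 10 genes took 1.98% to 4.51% of counts, and edgeR again called 0 of 10. With the counts of the copies given to the genes, the means over the 10 libraries came to 5369 TPM for COX1, 3802 for COX2 and 5405 for COX3. The mean of CYTB was 6053. The order differed between the groups. In KO the means were 6180 for COX1 and 6249 for COX3, above CYTB at 5786. In WT they were 4154 and 4139, below CYTB at 6453. The share of complex IV in the members' counts rose to 47.2% to 60.1% in KO and 44.7% to 53.5% in WT, and 5 of 6 KO libraries stayed above all WT libraries.

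**Figure D3:**
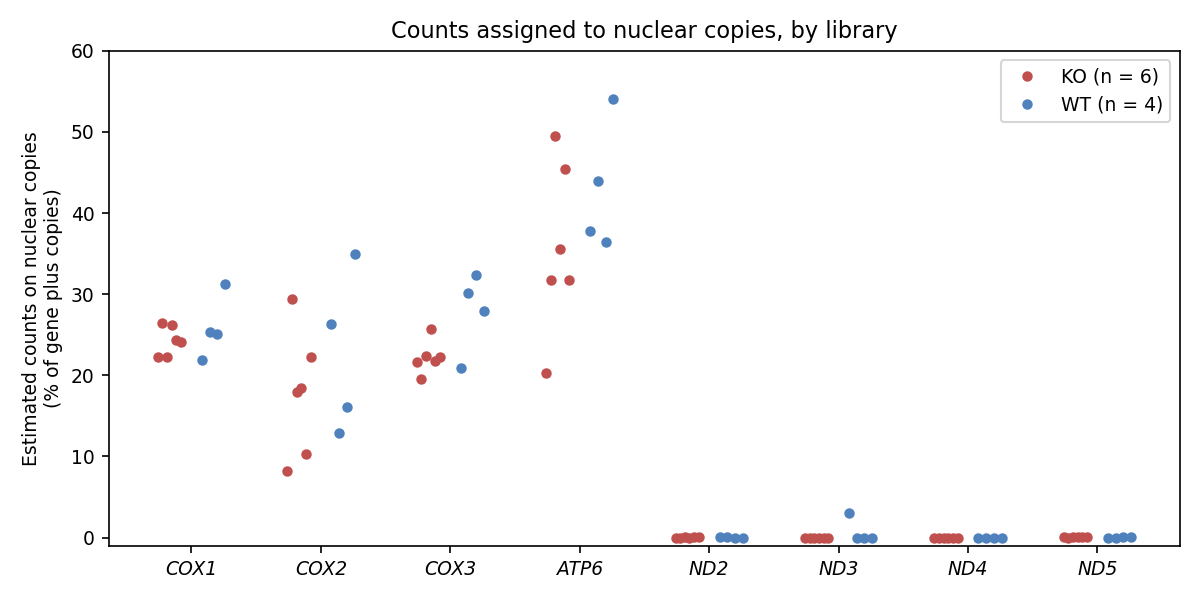
Estimated counts on nuclear copies as a percentage of gene plus copies (vertical axis), for 8 genes with a copy in 6 KO and 4 WT libraries, each point a library. COX1, COX2, COX3 and ATP6 lie between 8.14% and 54.0%, and ND2, ND3, ND4 and ND5 at 0 or close to it apart from ND3 in WT 15416 at 3.08%.

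Some nuclear genes that build the same complexes were called lower in KO. Of 36 nuclear complex I subunits, edgeR called 15 lower and 0 higher, where 2.67% of all genes were called lower and 1.32% higher, and all 36 log2 fold changes were negative with a median of -0.66. The examples with the smallest p, Ndufb10 (-1.11, SE 0.21), Ndufb9 (-0.83, SE 0.16), Ndufb7 (-0.98, SE 0.21) and Ndufs7 (-0.84, SE 0.19), each had an adjusted p of 0.0824. Ndufs7 holds an iron-sulfur cluster next to the quinone site, and the Ndufb genes encode accessory subunits of the membrane arm. As a share of counts the 36 genes overlapped between the groups, at 0.539% to 0.724% in KO and at 0.894%, 0.740%, 0.583% and 1.07% in WT 15416, 15417, 15418 and 15420. WT 15420, the highest, had the fewest genes detected. LT-HSC markers summed higher in 5 of 6 KO libraries than in any WT library, with 2 of the 8 called higher, and their part in these values was not tested. A refit with the number of genes detected as a covariate is given below.

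Of 9 nuclear complex III subunits 3 fell, with a median of -0.61 over the list: Uqcr11 (-0.90, SE 0.19), Uqcrq (-0.91, SE 0.19) and Uqcr10 (-0.75, SE 0.20). Of 11 nuclear complex IV subunits 5 fell, with a median of -0.57, among them Cox7c (-0.83, SE 0.21), Cox5b (-0.76, SE 0.19), Cox5a (-0.65, SE 0.16) and Cox7a2 (-0.67, SE 0.17). Complex II, which has no mitochondrially encoded subunit, had 1 of 4 lower, Sdhb (-0.89, SE 0.19), and complex V had 4 of 14 lower, Atp5k, Atp5g1, Atp5o and Atp5l (-1.07 to -0.64). No gene of these 5 lists was called higher.

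These calls were close to the threshold. Over all lists of nuclear genes examined, 33 were called, with adjusted p from 0.0824 to 0.0997, and 79 had an unadjusted p below 0.05. The number called was 47 without KO 15409, 38 without WT 15417, 29 without WT 15418 and 16 without WT 15420. It was 0 without any 1 of KO 15405, KO 15406, KO 15411, KO 15412, KO 15415 or WT 15416. In those 6 refits edgeR called at most 1 gene of the whole table, against 667 with all libraries, while 66 to 74 genes of the lists had an unadjusted p below 0.05. With Xist or the number of genes detected as a covariate, 0 genes of the lists and at most 1 of the whole table were called, with 58 and 23 of the lists at an unadjusted p below 0.05. The number of genes detected was higher in all KO libraries (lowest 14595) than in any WT library (highest 14583). The refit with that covariate thus cannot separate it from genotype.

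**Figure D4:**
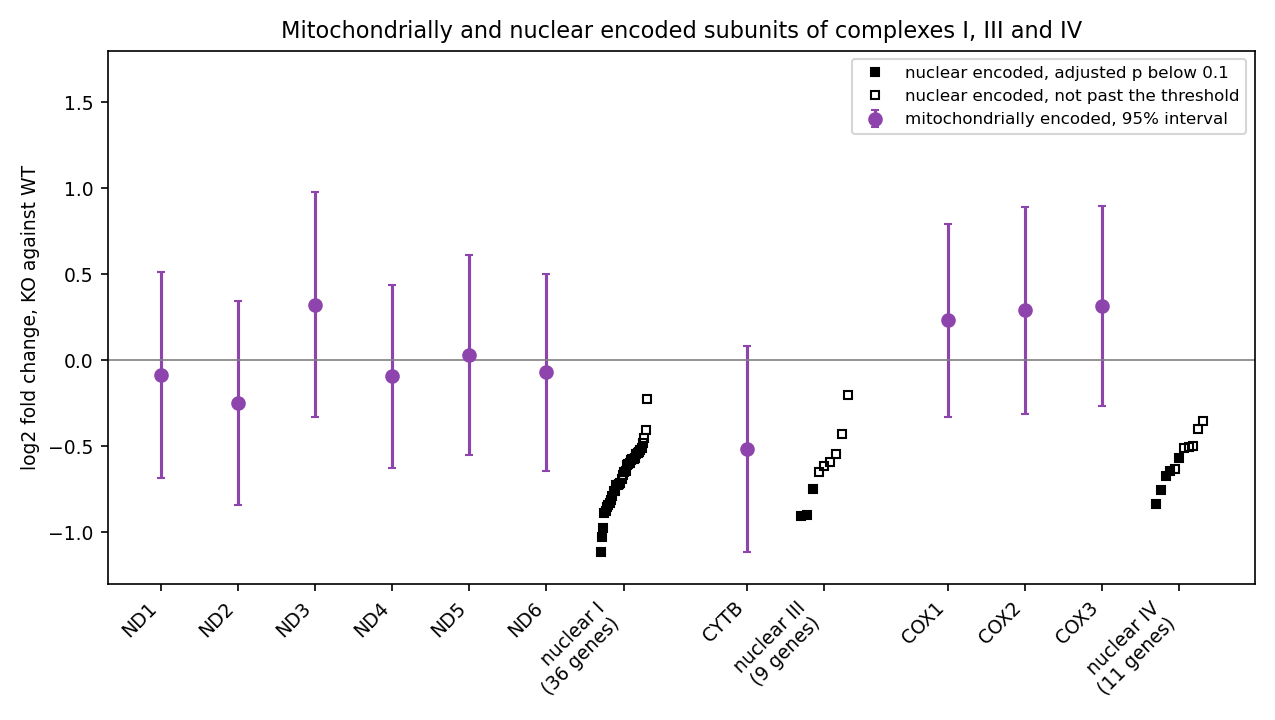
Log2 fold change of KO against WT (vertical axis) for mitochondrially encoded members with 95% intervals and for nuclear subunits of complexes I, III and IV, filled where the adjusted p was below 0.1. The 10 intervals all include 0, and all nuclear subunits plotted lie below 0.

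In counts, the members of complex I came to 0.798 to 1.69 counts per count on the 36 nuclear subunits in KO and to 0.797, 0.751, 0.777 and 0.598 in WT 15416, 15417, 15418 and 15420. The KO libraries thus all lay above WT, although the lowest KO value and the highest WT value were nearly equal. For complex IV the ratio was 2.31 to 5.79 in KO and 2.18, 2.18, 2.33 and 1.75 in the same WT libraries, with 5 of 6 KO libraries above the highest WT library. For complex III it was 1.59 to 3.52 in the KO libraries and 1.63 to 3.09 in the WT libraries, with 2 of 6 above. The ratio was highest in KO 15412 and KO 15415 for all 3 complexes. The lower values of the nuclear subunits enter these ratios, so they are given as a description with no test.

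Factors that maintain and express the mitochondrial DNA are given next, beside the 3.99% of all genes tested that were called. With so low a share, a count of 0 in a short list says little about its genes. Of 10 genes of mitochondrial transcription, edgeR called 0 (2 at an unadjusted p below 0.05, both lower), with a median log2 fold change of -0.36. Tfam, which packages the DNA and starts transcription, was at -0.48 (SE 0.21, adjusted p = 0.248). Mterf1b, a paralog in the termination factor family, was at -1.96 (SE 0.82, adjusted p = 0.221), at no more than 8.34 CPM in any library. Mterf1b has a close paralog, Mterf1a, with which reads may be shared.

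Of 8 genes of mitochondrial DNA maintenance, edgeR called 0 (2 at an unadjusted p below 0.05), with a median of -0.42. Ssbp1, the single-strand binding protein of the replication fork, was at -0.76 (SE 0.23, adjusted p = 0.117), and Rnaseh1, which removes RNA primers, at -0.58 (SE 0.25, adjusted p = 0.233).

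Of 21 genes of mitochondrial RNA processing and decay 5 fell and 0 rose, where 2.67% of all genes were called lower, with a median of -0.42. Grsf1, an RNA-binding protein of the mitochondrial RNA granules, was at -0.92 (SE 0.23, adjusted p = 0.0831). Rexo2, an exonuclease that degrades short RNAs, was at -0.78 (SE 0.20, adjusted p = 0.0867).

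Trmt10c, a subunit of the enzyme that cuts the 5' ends of transfer RNAs, was at -0.84 (SE 0.22, adjusted p = 0.0906). Slirp, which with Lrpprc stabilizes the messages of the heavy strand, was at -0.85 (SE 0.24, adjusted p = 0.0953). Lrpprc itself had a log2 fold change of -0.19 (SE 0.20, adjusted p = 0.665).

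Of 11 translation factors and insertion proteins, edgeR called 0 (2 at an unadjusted p below 0.05), and all 11 log2 fold changes were negative with a median of -0.14. Taco1, a translational activator of COX1, was at -0.98 (SE 0.43, adjusted p = 0.245), with no more than 13.5 CPM in any library. Gfm1, an elongation factor, was at -0.62 (SE 0.28, adjusted p = 0.253). Of 7 nuclear regulators, edgeR called 0 (1 at an unadjusted p below 0.05). Those with the smallest p were Ppargc1a, a coactivator of respiratory genes, at 1.74 (SE 0.70, adjusted p = 0.205), and its relative Ppargc1b at 0.81 (SE 0.38, adjusted p = 0.272). Ppargc1a was low in all libraries, at 0.921 to 6.09 CPM in KO and 0.444 to 1.56 in WT.

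The 10 genes varied together across libraries to unequal degrees. Pearson's r of log2 CPM over the 10 libraries ran from 0.323 to 0.978 across the 45 pairs, with a median of 0.836. All points share library and depth, so r is a description.

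Among 9482 nuclear genes with a mean of at least 10 CPM, those whose log2 CPM followed the summed CPM of the 10 genes most closely included Daam1 (r = 0.960), Unc119 (0.918), Msmo1 (0.848) and Rpl28 (0.839). Those most opposed were Pdxdc1 (-0.907), Fkbp15 (-0.893), Irgq (-0.875), Tyk2 (-0.863) and Prr3 (-0.857). Since these nuclear genes were picked from 9482 over 10 libraries, of which 2 stood high, no p is given for these values.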

How the data were processed

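RNA of sorted LT-HSCs (6 KO, 4 WT) was made into SmartSeq2 libraries and sequenced as single-end reads. With Kallisto and the Gencode vM16 annotation (GRCm38), the authors quantified transcripts and deposited, per library, estimated counts and TPM; per the labels, bcl2fastq 2.20 and kallisto 0.44.0 were used. The authors also deposited gene counts, the estimated counts summed by symbol, not normalized; 97.5% of the values lay within 1 count of sums made here through Gencode vM21. Kallisto assigns reads that fit several transcripts by likelihood, which bears on genes with nuclear copies.

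Gene counts (at least 11 in total) were fitted with edgeR 4.0.16 in R 4.3.3 (TMM, robust glmQLFit, glmQLFTest, group only) and called at a Benjamini-Hochberg adjusted p below 0.1, the threshold of the study. The script was tested on simulated data. Groups came from the genotype label. Intervals of log2 fold changes and of shares are at 95%. Copies were sought with BLAST+ 2.17.0 (identity of at least 95%, 75 bases) among vM21 transcripts. Only matches in the sense direction that covered the larger part of the copy's transcript were kept, so other copies in the genome may have been missed. Coordinates and sequences are those of vM21. Library totals were 5315435 to 30941726 counts, which sets counting error well below the spread between libraries.

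The members, lists and markers were chosen with earlier results of these data known. The text names the 10 members, ND4L, ATP6 and ATP8, the 3 copies of members with the most counts, up to 4 called genes per list by p or else the 2 with the smallest p, the 5 genes most and least like the members, and Spi1; 1 item that this rule names is not reported here. Gm28438, Gm28439 and Lrpprc were named after their values were seen, as were the ratios between members. Alternatives were DESeq2 1.42.0, other scaling, filters, covariates, a length offset (span 0.3), other count sources and denominators, a threshold of 0.05, and libraries left out. Plots were made with Matplotlib 3.10.9.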

Additional observations from a re-analysis of the deposited data

Results flagged for a closer look

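Among 66 groups of values checked, 1 held a library far from the others. In KO 15409, CYTB took 31.7% of the members' counts, while the other 5 KO libraries lay between 21.6% and 25.3%. The gap to the nearest library was 0.634 of the range of the group. Chance alone places about 1 in 20 groups past this limit.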

How the results depend on the processing

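No paired analysis was possible because the labels do not tie libraries to litters, although the study describes its controls as littermates. The count of members called was 0 under all 26 alternatives, but in 10 of them (Xist, genes detected, 6 single libraries left out, both KO 15412 and KO 15415 left out, and an adjusted p below 0.05) at most 1 gene of the whole table was called, so these 10 say nothing about stability. The difference in share kept within 1 pooled SD (0.734 points) of 0.306 points under 16 alternatives. That SD exceeds the difference itself, so this limit does not show that the sign held. The difference was -0.17 points for the group medians and -0.23 points without both KO 15412 and KO 15415. Each library left out in turn gave 0.0295 to 0.451 points. The median log2 fold change of the members (-0.02) moved to -0.49 with genes detected as a covariate, to -0.37 without KO 15412 and KO 15415 and to -0.29 with Xist, each with all 10 negative. The median of all genes was -0.03, 0.05 and -0.01 there. All KO libraries had more genes detected than any WT library, so that covariate cannot be separated from genotype. The comparison lists (33 called) gave 63 with DESeq2 without a fold-change threshold, 21 with upper-quartile normalization, 14 with the length offset and 17 with sums of the transcript tables. They gave 0 with Xist, with genes detected, without both KO 15412 and KO 15415 and at an adjusted p below 0.05, and 0 to 47 with each library left out. The causes were not tested.

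CYTB, ND2 and ND4 were negative in all 25 refits. The sign of ND4 was not firm, as its value was -0.000125 without KO 15406. Signs reversed with Xist for ND3 (-0.085), ND5 (-0.28), COX1 (-0.12), COX2 (-0.099) and COX3 (-0.037). They reversed with genes detected for ND3 (-0.46), ND5 (-0.41), COX1 (-0.31), COX2 (-0.34) and COX3 (-0.36). Without KO 15412 and KO 15415, they reversed for ND3 (-0.078), ND5 (-0.32), COX1 (-0.15), COX2 (-0.12) and COX3 (-0.062). The length offset, which moved the median of all genes from 0.06 to -0.19, reversed ND5 (-0.31), ND6 (0.016) and COX1 (-0.013). With single libraries left out, ND1 ranged from -0.24 to 0.032 (positive without KO 15406, KO 15411 or WT 15416) and ND6 from -0.21 to 0.021 (positive without KO 15406, KO 15409 or WT 15416). ND5 ranged from -0.11 to 0.15 (negative without KO 15412, KO 15415 or WT 15417). Sums of the transcript tables moved the median of all genes to 0.19. With at least 244 counts per member and library, precision was set by the spread over 6 and 4 libraries.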
